A study of Rattus norvegicus with 12 samples.

Results

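Havcr1, Lcn2, Clu and Spp1 are 4 genes whose RNA or protein is measured as a sign of injury to the kidney tubule. They were chosen by name as markers of that injury, with earlier results of these data known. All 4 of their Ensembl identifiers were present among the 21698 rows of the count table. The table lists identifiers only, and the symbols used here are the ones paired with those identifiers when the genes were chosen: ENSRNOG00000007243 (Havcr1), ENSRNOG00000013973 (Lcn2), ENSRNOG00000016460 (Clu) and ENSRNOG00000043451 (Spp1). RNA-seq counts came from 12 libraries of 2 established rat kidney lines, NRK-52E epithelial cells and NRK-49F fibroblasts, with 3 libraries in each of 4 groups. The first group was NRK-52E given vehicle (Control in the labels), and the second was NRK-52E given cisplatin, a DNA-crosslinking drug that is toxic to tubular cells, at 40 µM. The third was NRK-49F kept in medium conditioned by untreated NRK-52E (untreated medium), and the fourth was NRK-49F kept in medium conditioned by NRK-52E that had received 40 µM cisplatin (cisplatin medium). Both lines were grown in DMEM with 5% serum. The design text gives 24 h of cisplatin and 24 h in conditioned medium, whereas the treatment protocol gives 6 h of cisplatin followed by 24 h in fresh medium. The labels do not settle which schedule was used for the NRK-52E cells that were sequenced. Each line stands for 1 cell type in culture, and nothing in the labels ties the libraries of a group to separate cultures. The p-values therefore set group differences against the variation of these libraries only, and that variation may be technical.

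Havcr1 encodes KIM-1, a membrane receptor of the proximal tubule cell that binds phosphatidylserine on dying cells, and it is nearly silent in the healthy kidney and induced after injury. Lcn2 encodes NGAL, a secreted protein that carries iron-binding siderophores and is released by stressed distal and collecting tubule cells. Clu encodes clusterin, a secreted glycoprotein that acts as an extracellular chaperone for misfolded proteins. Spp1 encodes osteopontin, a secreted phosphoprotein that binds integrins and CD44 and is also made by matrix-producing cells. Clusterin, KIM-1, NGAL and osteopontin are all used as urinary indicators of drug-induced kidney injury.

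Total counts ranged from 9684887 to 12549675 per library. Levels are given in CPM, counts per 1000000 of a library size scaled by TMM, a factor that sets the bulk of genes equal between libraries. In one library, 3 counts, taken as the floor, equalled 0.215 to 0.355 CPM, a limit that covers counting error only. Markers of epithelium, fibroblasts and other cell types could not be looked up by symbol, so the labelled cell types were not checked here.

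The 4 genes did not move as a group. Clu rose about 7-fold with cisplatin in NRK-52E, Lcn2 rose about 2-fold from a very low level, Spp1 showed no detectable change, and Havcr1 was found only as a few reads in cisplatin-treated cells. In NRK-49F, cisplatin medium was accompanied by lower Spp1 and lower Lcn2 and by a small fall of Clu that depended on the scaling. Lcn2, Clu and Spp1 were all lower in vehicle-treated NRK-52E than in NRK-49F in untreated medium. In bulk RNA, a change in the fraction of cells that express a gene cannot be told apart from a change of its RNA per cell.

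**Figure D1:**
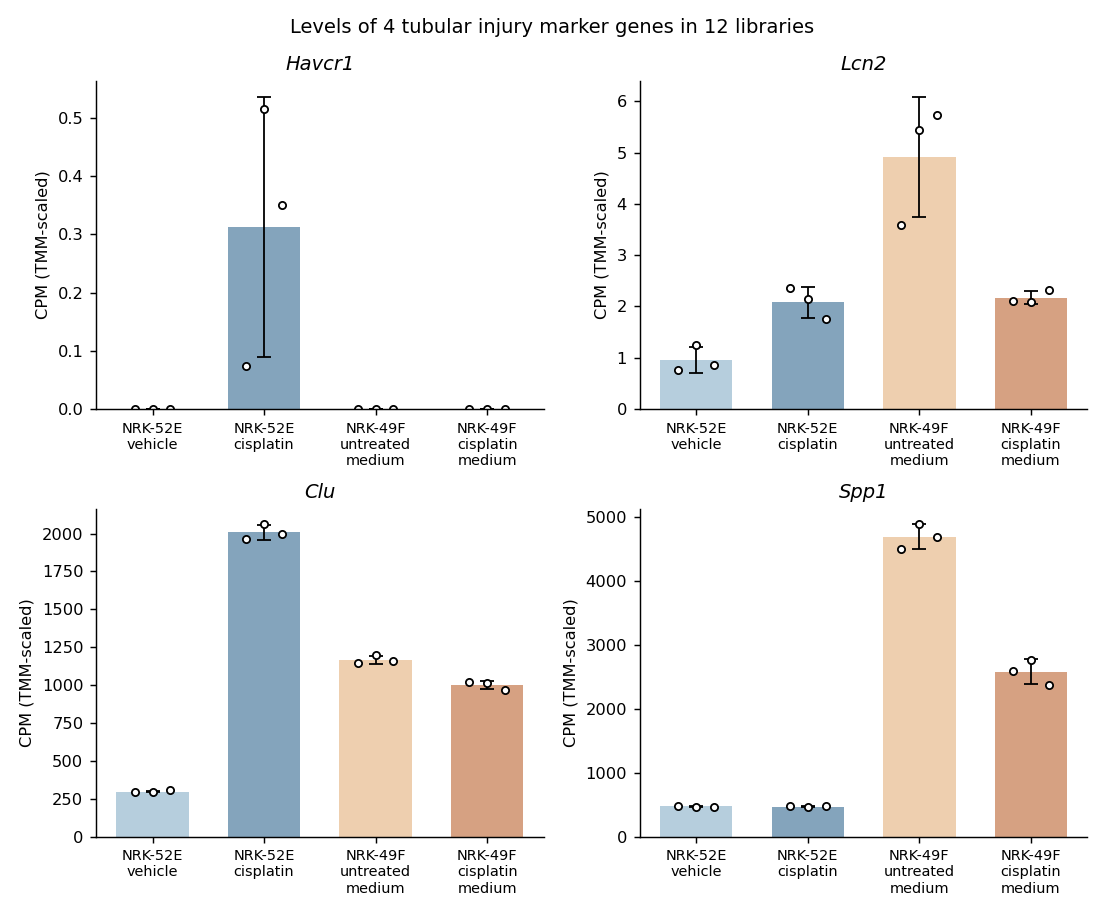
Levels of Havcr1, Lcn2, Clu and Spp1 in CPM (vertical axes from 0, a separate scale for each gene) in the 4 groups. Bars are means, error bars are SD and open points are the 3 libraries of each group. Clu was highest in NRK-52E with cisplatin, Lcn2 and Spp1 were highest in NRK-49F in untreated medium, and Havcr1 was above 0 only in NRK-52E with cisplatin.

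Among the 3 genes that could be tested, Clu showed the largest response in NRK-52E. Its counts in vehicle-treated NRK-52E were 3914, 3795 and 4256, and with cisplatin they were 26756, 27971 and 22787. These equal 294, 295 and 305 CPM with vehicle and 1966, 2061 and 1996 CPM with cisplatin. Every cisplatin library lay far above every vehicle library, and the means were 297.9 ± 6.32 and 2008 ± 48.4 CPM (SD, n = 3 each). The log2 fold change was 2.77 with a standard error of 0.04, a 6.84-fold rise (95% interval 6.45 to 7.26, edgeR quasi-likelihood adjusted p = 1.03e-34).

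By read count, which also reflects transcript length, Clu stood at places 514 to 529 of all rows in the vehicle libraries and at places 12 to 14 in the cisplatin libraries. It held 0.231% to 0.245% of all counts there, compared with 0.0334% to 0.0341% with vehicle. Among the 2145 genes with a mean of at least 100 CPM in NRK-52E, 15 had a larger log2 fold change in size than Clu, and all 15 were increases. Among all 12508 genes tested in that line, Clu stood at place 588 from the top.

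In NRK-49F, Clu was abundant in both media. Its levels were 1143, 1196 and 1158 CPM in untreated medium and 1019, 1015 and 968 CPM in cisplatin medium, which are 1166 ± 27.2 and 1000.4 ± 28.3 CPM (SD, n = 3 each). The groups did not overlap on this scale, and the log2 fold change was -0.23 (standard error 0.04, edgeR adjusted p = 1.42e-06). With counts scaled by library size only, the levels were 924, 971 and 937 CPM in untreated and 947, 935 and 898 CPM in cisplatin medium, and these groups overlapped. The log2 fold change was then -0.03 (edgeR adjusted p = 0.515), so the fall of Clu in NRK-49F rests on scaling beyond library size. DESeq2, which does not use TMM, gave -0.23 (DESeq2 adjusted p = 3.06e-09). The edgeR test against a 1.5-fold change did not call the fall of Clu (adjusted p = 1).

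The order of Clu levels was NRK-52E with cisplatin, NRK-49F in untreated medium, NRK-49F in cisplatin medium and NRK-52E with vehicle. No neighbours in this order overlapped with TMM factors, but the NRK-49F groups did with library size only. NRK-52E with vehicle was below NRK-49F in untreated medium by a log2 difference of -1.98 (standard error 0.04, edgeR adjusted p = 3.07e-39). With cisplatin and cisplatin medium the order was turned, and NRK-52E was above NRK-49F by 1.04 on the log2 scale (standard error 0.04, edgeR adjusted p = 9.17e-29).

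Lcn2 was read at low depth in every library. Its counts were 10, 16 and 12 in NRK-52E with vehicle and 32, 29 and 20 with cisplatin. These equal 0.751, 1.24 and 0.861 CPM with vehicle and 2.35, 2.14 and 1.75 CPM with cisplatin, without overlap. The means were 0.951 ± 0.258 and 2.08 ± 0.304 CPM (SD, n = 3 each), and the log2 fold change was 1.16 with a standard error of 0.30, a 2.23-fold rise (95% interval 1.47 to 3.4, edgeR adjusted p = 0.000764).

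In NRK-49F, Lcn2 moved the other way. Its counts were 35, 46 and 53 in untreated medium and 21, 23 and 27 in cisplatin medium. These equal 3.58, 5.44 and 5.74 CPM and 2.11, 2.08 and 2.32 CPM, without overlap, with the first untreated library below the other two. The means were 4.92 ± 1.17 and 2.17 ± 0.131 CPM (SD, n = 3 each). The log2 fold change was -1.17 with a standard error of 0.23, a level 0.444 times that in untreated medium (95% interval 0.322 to 0.613, edgeR adjusted p = 3.78e-05). Among 11525 genes tested in NRK-49F, Lcn2 stood at place 247 from the lowest log2 fold change.

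The levels of Lcn2 were highest in NRK-49F in untreated medium and lowest in NRK-52E with vehicle, a log2 difference between the lines of -2.37 with a standard error of 0.27 (NRK-52E minus NRK-49F, edgeR adjusted p = 4.53e-11). The 2 groups between them, NRK-49F in cisplatin medium and NRK-52E with cisplatin, overlapped. Their log2 difference was -0.02, with a 95% interval of -0.54 to 0.51 (edgeR adjusted p = 0.958). At this depth a difference of up to about that interval would not have been seen.

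Spp1 is shown next to Lcn2 because both were lower in NRK-49F in cisplatin medium, while in NRK-52E only Lcn2 was called. In NRK-52E, Spp1 had 6471, 5988 and 6560 counts with vehicle and 6506, 6197 and 5410 with cisplatin. These equal 486, 465 and 470 CPM and 478, 457 and 474 CPM, and the groups overlapped. The means were 473.8 ± 10.9 and 469.6 ± 11.4 CPM (SD, n = 3 each). The log2 fold change was 0.01 with a 95% interval of -0.07 to 0.09, which bounds a change at 0.951-fold to 1.06-fold (edgeR adjusted p = 0.852). Of the 12508 genes tested in NRK-52E, 98.8% had a larger log2 fold change in size.

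In NRK-49F, Spp1 had 43950, 41327 and 43370 counts in untreated medium and 25904, 30661 and 27718 in cisplatin medium. These equal 4496, 4888 and 4696 CPM and 2598, 2772 and 2381 CPM. Every cisplatin medium library was below every untreated medium library, with means of 4693 ± 196 and 2584 ± 196 CPM (SD, n = 3 each). The log2 fold change was -0.87 with a standard error of 0.04, a level 0.548 times that in untreated medium (95% interval 0.517 to 0.581, edgeR adjusted p = 2.6e-19). With library size only it was -0.67 (edgeR adjusted p = 1.9e-16).

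Spp1 was among the most frequently read genes of the fibroblasts, at places 13 and 14 by read count in untreated medium and at places 23 to 25 in cisplatin medium. It held 0.364% to 0.397% of all counts in the former and 0.221% to 0.255% in the latter. In the order of Spp1 levels both NRK-49F groups were above both NRK-52E groups, and the NRK-52E groups did not differ beyond their spread. NRK-52E with vehicle was below NRK-49F in untreated medium by a log2 difference of -3.32 (standard error 0.05, edgeR adjusted p = 1.45e-45). With cisplatin and cisplatin medium the log2 difference was -2.42 (standard error 0.04, edgeR adjusted p = 2.21e-40).

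The 250 bases before the annotated start of Lcn2 and of Spp1 are given because both genes fell in NRK-49F in cisplatin medium, while in NRK-52E Lcn2 rose and Spp1 was not called. The sequences are from the RefSeq table of build GRCr8, chr3:36081781-36082030 on the minus strand for Lcn2 and chr14:5619805-5620054 on the minus strand for Spp1, and capitals mark motif matches.
Lcn2: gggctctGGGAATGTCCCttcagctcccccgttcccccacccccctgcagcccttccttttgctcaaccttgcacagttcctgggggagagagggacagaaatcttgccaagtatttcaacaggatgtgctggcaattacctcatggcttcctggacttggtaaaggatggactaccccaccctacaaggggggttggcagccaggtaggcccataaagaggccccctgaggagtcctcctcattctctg
Spp1: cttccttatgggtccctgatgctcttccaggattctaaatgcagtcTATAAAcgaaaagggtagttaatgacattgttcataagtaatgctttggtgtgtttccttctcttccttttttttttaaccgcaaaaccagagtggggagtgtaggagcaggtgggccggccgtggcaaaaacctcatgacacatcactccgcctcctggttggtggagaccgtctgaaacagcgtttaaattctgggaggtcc
Motifs were searched on both strands. In Lcn2 the NF-kB motif, which opens with GGGA and closes with CC, matched once on each strand, in 2 overlapping runs between 243 and 233 bases before the start. NF-kB is a transcription factor family activated by inflammatory and genotoxic stress, and Lcn2 is among its known targets. The Spp1 window held the TATA box letters TATAAA 204 to 199 bases before the start and no NF-kB match. Neither window held the AP-1 letters TGANTCA or the STAT letters TTCNNNGAA, and the window of Havcr1 held none of the 4 motifs. Of 33469 RefSeq windows of this length, 16.4% held the NF-kB motif, 12.9% the TATA box letters, 6.34% the AP-1 letters and 7.67% the STAT letters. A match in such a window is a description of its letters and no evidence of a bound site. The table has no entry for Clu.

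Havcr1 was at 0 counts in all 3 vehicle libraries of NRK-52E and in all 6 libraries of NRK-49F. With cisplatin, NRK-52E had 1, 7 and 4 counts, or 0.0735, 0.516 and 0.35 CPM. All 3 cisplatin libraries were above 0, but the first held a single read, and the mean was 0.313 ± 0.223 CPM (SD, n = 3). Over each group together, 0 counts allow up to 0.0747 CPM in vehicle-treated NRK-52E, 0.109 CPM in NRK-49F in untreated medium and 0.0918 CPM in cisplatin medium. The 12 counts of the cisplatin group together made 0.311 CPM, which is 4.16 times that floor of 3 counts over the vehicle group. This ratio leaves out the counting error of the 12 counts themselves, so it is no lower limit of the change. Without the second cisplatin library, which held 7 of the 12 counts, the ratio was 2.67-fold. Without a vehicle library, which raises the floor, it was 2.71-fold to 2.83-fold. Havcr1 was below the filter on low counts (at least 10 counts in enough libraries, 15 in total) and was therefore not tested. With no filter, edgeR called it (adjusted p = 0.00215), where 52.2% of 20900 genes passed, so the call by itself says little. The fold change of that fit depends on the prior count and is not given. Its level in NRK-52E with cisplatin was within the range where a few reads decide the value.

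Across the tested genes, the calls have to be read against the share of all genes called. In NRK-52E 2 of the 3 tested markers passed, both as increases, where 76.2% of the 12508 genes tested passed in either direction and 38.7% rose. In NRK-49F all 3 passed as decreases, where 61.8% of 11525 genes passed and 31% fell. With library size only the NRK-49F calls changed from 3555 increases and 3568 decreases to 5918 and 1926, with a shift of 0.20 in the median over all genes on the log2 scale, and 2 of the 3 markers then fell. Since most genes were called, the number of markers called says little about them, and the sizes of their changes are given for that reason. Against a 1.5-fold change, which 31% of genes passed in NRK-52E and 10.3% in NRK-49F, Clu (edgeR adjusted p = 1.16e-32) and Lcn2 (adjusted p = 0.0289) passed in NRK-52E. Lcn2 (edgeR adjusted p = 0.0196) and Spp1 (adjusted p = 1.32e-07) passed in NRK-49F. The test against a 1.5-fold change was run with TMM factors only.

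**Figure D2:**
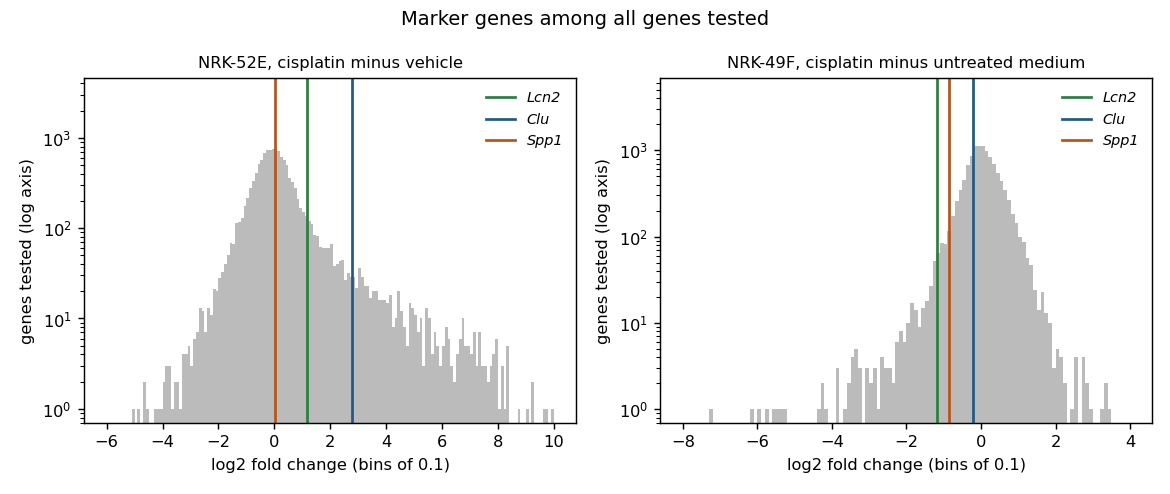
Number of genes tested (vertical axes, log scale) by log2 fold change (horizontal axes, bins of 0.1) in NRK-52E on the left and NRK-49F on the right, with coloured lines at Lcn2, Clu and Spp1. In NRK-52E Spp1 lay at the middle of the distribution and Clu in the upper tail, at 2.77. In NRK-49F Lcn2, at -1.17, and Spp1, at -0.87, lay in the lower tail, and Clu lay near the middle.

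One edgeR fit of all 12 libraries gave a direct test of how the responses differed, as the NRK-52E log2 fold change minus the NRK-49F one. It was 3.02 for Clu (standard error 0.05, edgeR adjusted p = 8.01e-40), 2.35 for Lcn2 with a standard error of 0.38 (adjusted p = 5.06e-07) and 0.89 for Spp1 with a standard error of 0.06 (adjusted p = 9.77e-18). All 3 markers passed, where 66.5% of 13127 genes passed and 33.9% had a higher value in NRK-52E. For Clu nearly all of the difference lay in NRK-52E, and for Spp1 nearly all of it lay in NRK-49F. For Lcn2 both lines contributed, with opposite signs. One line received the drug and the other a conditioned medium, so line and agent cannot be told apart in this contrast.

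**Figure D3:**
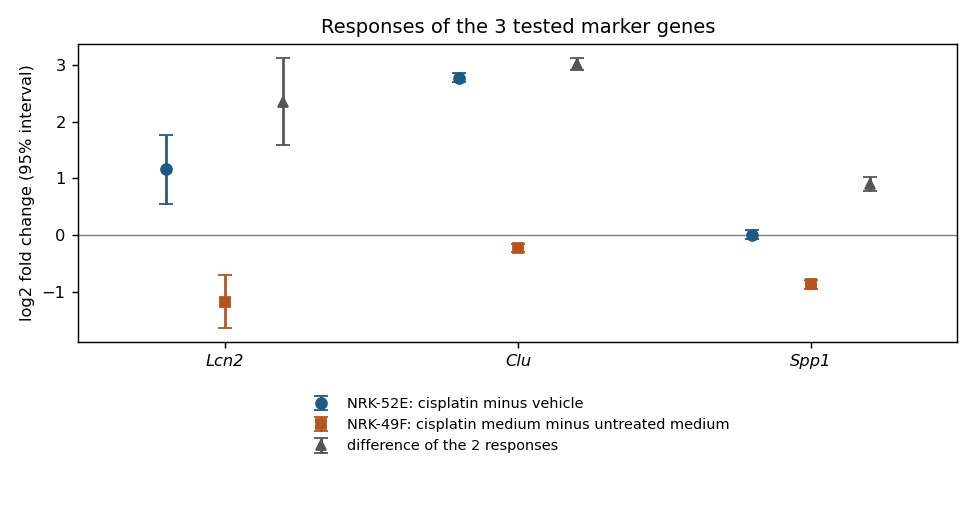
Log2 fold changes of Lcn2, Clu and Spp1 (vertical axis) with 95% intervals as error bars, for cisplatin in NRK-52E (circles), cisplatin medium in NRK-49F (squares) and the difference of both (triangles). Lcn2 was above 0 in NRK-52E, at 1.16, and below 0 in NRK-49F, at -1.17, and the interval of Spp1 in NRK-52E includes 0.

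The tested markers also differed between the lines before any cisplatin. In the comparison of NRK-52E with vehicle and NRK-49F in untreated medium, 81.7% of 13127 genes passed and 40.9% were lower in NRK-52E, and Lcn2, Clu and Spp1 were all among the latter. In the comparison of the cisplatin groups, where 82.7% passed, 42.6% as higher and 40.1% as lower in NRK-52E, Clu was higher and Spp1 lower there, and Lcn2 was not called. TMM factors over all libraries were 1.118 to 1.187 in NRK-52E and 0.8085 to 0.9301 in NRK-49F, and leaving them out moved the median of all genes by 0.49 on the log2 scale in the first comparison. With library size only, the log2 differences between NRK-52E with vehicle and NRK-49F in untreated medium were -1.88 for Lcn2, -1.49 for Clu and -2.83 for Spp1. NRK-49F was kept in medium conditioned by NRK-52E, whereas NRK-52E received vehicle or cisplatin directly, so line and medium cannot be told apart here.

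**Figure D4:**
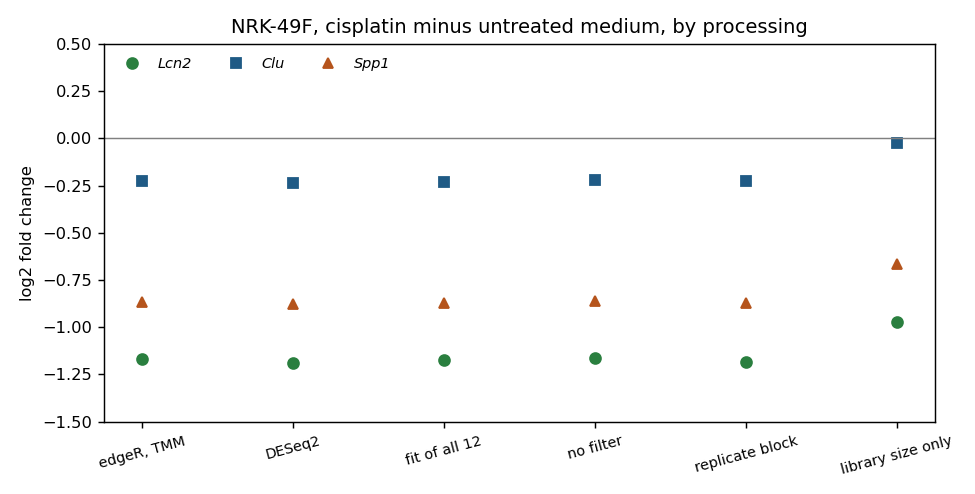
Log2 fold changes of Lcn2, Clu and Spp1 in NRK-49F, cisplatin medium minus untreated medium (vertical axis), under 6 ways of processing (horizontal axis). Library size only moved each gene up, Clu to -0.03, Spp1 to -0.67 and Lcn2 to -0.97, while DESeq2, the fit of all libraries, no filter and the replicate block left them near the values of edgeR with TMM.

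The gene with the pattern most like each marker was sought among 11234 other genes with a mean of at least 2 CPM. Likeness was the root mean square difference of log2 CPM over the 12 libraries after centring each gene on its own mean. The closest gene to Clu was ENSRNOG00000009068, with a difference of 0.106, at 71.2 ± 2.19 CPM in NRK-52E with vehicle and 424 ± 30 with cisplatin, and at 248 ± 12 and 228 ± 11.6 CPM in NRK-49F in untreated and cisplatin medium (SD, n = 3 each). For Lcn2 it was ENSRNOG00000056940, with a difference of 0.214, at 48.8 ± 1.66 and 105 ± 2.79 CPM in NRK-52E and at 235 ± 12.1 and 119 ± 3.07 CPM in NRK-49F (SD, n = 3 each). For Spp1 it was ENSRNOG00000059215, with a difference of 0.191, at 5.5 ± 0.728 and 5.88 ± 0.85 CPM in NRK-52E and at 55.9 ± 4.3 and 37.8 ± 1.98 CPM in NRK-49F (SD, n = 3 each). These genes share the libraries and the group structure with the markers, and the files do not pair their identifiers with names. For Havcr1, at 0 counts outside NRK-52E with cisplatin, the closest of 11235 genes differed by 0.281. With so few counts the log2 values of Havcr1 are set largely by the prior count of 2, and that gene is not named.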

How the data were processed

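The table the authors deposited holds raw counts for each Ensembl rat gene, and its 12 columns carry the sample titles, by which they were matched to samples. The submitters' processing notes name STAR 2.7.10a, featureCounts and Subread without roles or settings. Which build, annotation and strand option were used is not given in the sources used here, so reads of overlapping or antisense genes may be included. The library kit was TruSeq stranded mRNA, per the labels' protocols. Columns left unused numbered 0.

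Tests used edgeR 4.0.16 in R 4.3.3: filterByExpr (minimum count 10, total 15), TMM, glmQLFit and glmQLFTest, Benjamini-Hochberg adjustment over all genes tested, threshold 0.05, each line fitted apart and contrasts between lines in 1 fit of all 12 libraries. A standard error is the size of the log2 fold change over the square root of F. Within groups, chi-square per degree of freedom between libraries was 1.67 to 3.839, above sampling noise. Each library counted as 1 sample, although this value does not show that the libraries came from separate cultures. The tests within each line and of the difference of responses were first tried on simulated data. Few genes changed in that simulation, whereas most genes were called here, and the comparisons of levels between the lines were not simulated. Alternatives were DESeq2 1.42.0, library size only, no filter, the replicate block, a test against 1.5-fold, and leaving out libraries. The named genes are the 4 markers and the gene most like each in pattern, other than for Havcr1, whose closest gene is given by its value only. The rule also took genes from lists of other injury genes, partners, regulators and cell type markers, by symbol. The RefSeq gene table (GRCr8) matched 0 identifiers, so these lists are not analysed here. The markers and lists were chosen with earlier results of these data known. Figures used matplotlib 3.10.9.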

Additional observations from a re-analysis of the deposited data

Results flagged for a closer look

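For 3 markers the response in NRK-52E differed from that in NRK-49F when the difference itself was tested (NRK-52E minus NRK-49F, log2 scale, edgeR over all 12 libraries), which is why they are listed. The difference was 2.35 for Lcn2 (edgeR adjusted p = 5.06e-07), 3.02 for Clu (adjusted p = 8.01e-40) and 0.89 for Spp1 (adjusted p = 9.77e-18). In the same test 66.5% of 13127 genes passed, so the calls by themselves say little about the markers. With 3 libraries a group, no search for a deviating library was made.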

How the results depend on the processing

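Over 15 tests of a marker and their 225 alternatives, 215 kept direction and side of the threshold, 8 changed sign and 2 lost the call. Among the alternatives, the test against a 1.5-fold change keeps the log2 fold change and is stricter, so it could only lose a call. In the comparisons of levels between the lines, the alternatives also left out libraries of groups that were not compared. Those can change only the filter, the scaling and the estimated spread, so they are a weak check. All 8 sign changes were of values not called before or after. Spp1 in NRK-52E was -0.036 with no filter and -0.016 to 0.027 with single libraries left out. Lcn2 between the cisplatin groups was 0.0045 with DESeq2, 0.298 with library size only and -0.116 to 0.0825 with libraries left out. Clu in NRK-49F lost its call with library size only (-0.0267) and against a 1.5-fold change (-0.23). That test lowered the calls over all genes from 9536 to 3883 in NRK-52E, 7123 to 1184 in NRK-49F, 8724 to 4512 for the difference of the responses, 10729 to 6709 between the untreated and 10862 to 6238 between the cisplatin groups. With library size only, increases and decreases were 3602 and 5196 (from 4447 and 4277) for the difference of responses, 7699 and 3481 (from 5365 and 5364) between the untreated and 7381 and 3756 (from 5597 and 5265) between the cisplatin groups. Mean CPM with library size only, in the order NRK-52E vehicle, NRK-52E cisplatin, NRK-49F untreated and NRK-49F cisplatin medium, were 336.5, 2370, 944 and 926.6 for Clu, 535.2, 554.1, 3801 and 2393 for Spp1, and 1.08, 2.46, 3.99 and 2.01 for Lcn2. By Pearson correlation another gene was most like Lcn2 (root mean square difference 0.606), Spp1 (0.621) and Havcr1 (0.505). With single libraries left out, Lcn2 ranged from 1.01 to 1.38 in NRK-52E and from -1.37 to -1.04 in NRK-49F, and Spp1 in NRK-49F from -0.92 to -0.81.

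The replicate block changed no call of a marker, and with it the calls over all genes numbered 9382 for cisplatin and 7020 for cisplatin medium. Deviations of same-numbered libraries from their group means correlated at -0.137 to 0.0781, so no pairing by number was seen. Deviations from a mean of 3 libraries depend on each other, so this check cannot exclude a weak pairing. Low counts limit Lcn2 and Havcr1.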

Other observations

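Relative to its mean, Spp1 varied more across the 3 libraries of NRK-49F in cisplatin medium than across those of each other group. The coefficient of variation of Spp1 there was 7.58%, while 31 genes within 1.5-fold of its level had a median of 2.28% (n = 3 libraries). In untreated medium the values were 4.18% for Spp1 and 2.31% for 17 such genes. The SD of Spp1 was 196 CPM in both media, around means of 4693 CPM in untreated and 2584 CPM in cisplatin medium. Whether the spreads differ was not tested. Clu in the same cisplatin medium libraries had 2.83%, against 2.66% for 132 genes of like level, and Lcn2 had 6.06% against 18.6% for 721 genes. Lcn2 had only 21, 23 and 27 counts there. At such counts the counting error is large, so its low value says little about how steady Lcn2 was.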
